A study of Mus musculus with 2 samples.

Results

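Oligodendrocyte lineage genes were followed through cells sorted from the subventricular zone, the stem cell niche along the lateral ventricles of the adult mouse brain. The 7 genes, Olig1, Olig2, Sox10, Pdgfra, Cspg4, Gpr17 and Nkx2-2, were taken by symbol from the 27998 genes of the deposited matrix, of which 18470 had at least 1 UMI (a unique molecular identifier, counted once per captured transcript). Each symbol matched 1 row, and all 7 had UMIs. The tissue came from male C57BL/6 mice with no transgene or treatment named in the labels: a 22-month-old group with 8 mice pooled and a 2-month-old group with 4 mice pooled. Cells had been sorted as positive for GLAST, a glutamate transporter of astrocytes and radial glia-like stem cells, and as negative for O4 (oligodendrocyte lineage), Ter119 (red cells) and CD45 (leukocytes), with 8000 sort events per library entering the droplet workflow. Each age had 1 library. The barcodes end in a 1 or a 2, and the labels do not say which of these is the older group, so values are given for library 1 and library 2 and ages were not compared.

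Olig1 and Olig2 are basic helix-loop-helix transcription factors that specify the oligodendrocyte lineage, and Olig2 is also present in transit amplifying progenitors of this niche. Sox10, an HMG-box factor, acts downstream of Olig2 and drives myelin genes, and the homeobox factor Nkx2-2 takes part in differentiation. Oligodendrocyte precursors carry the PDGF-A receptor Pdgfra and the proteoglycan NG2, encoded by Cspg4, while the receptor Gpr17 marks late precursors and cells just committed to differentiate and is lost from mature oligodendrocytes.

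In the GRCm38 annotation the genes are protein-coding. Olig2 (ENSMUSG00000039830) lies at chr16:91225457-91228677 and Olig1 (ENSMUSG00000046160) at chr16:91269772-91271933, both on the plus strand, so that the start of Olig1 is 41095 bases past the end of Olig2. Sox10 (ENSMUSG00000033006) lies at chr15:79154908-79165240 on the minus strand, Pdgfra (ENSMUSG00000029231) at chr5:75152292-75198215 on the plus strand, Cspg4 (ENSMUSG00000032911) at chr9:56865033-56899870 on the plus strand and Nkx2-2 (ENSMUSG00000027434) at chr2:147177546-147194243 on the minus strand.

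The RefSeq promoter table (GRCm38.p6) matched 4 of the 7 genes. Shown are the stretches upstream of the annotated gene for the 3 of them that have such a stretch, Olig2, Pdgfra and Cspg4. All 3 were far higher in precursors than in the other classes described below. For Pdgfra this follows from the definition of precursors, cells with at least 2 Pdgfra UMIs. The 5′ to 3′ letters are on the plus strand, at chr16:91225300-91225456, chr5:75152001-75152250 and chr9:56864854-56865032. Capitals mark 2 motifs that a script searched on both strands: the E-box CANNTG, the binding motif of basic helix-loop-helix factors, and ACAAT (read as ATTGT on the other strand), the core of Sox factor motifs. The motifs did not overlap in these windows.
Olig2: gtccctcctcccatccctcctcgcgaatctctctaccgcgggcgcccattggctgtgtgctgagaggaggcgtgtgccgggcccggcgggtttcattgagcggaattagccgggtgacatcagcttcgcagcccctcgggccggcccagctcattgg
Pdgfra: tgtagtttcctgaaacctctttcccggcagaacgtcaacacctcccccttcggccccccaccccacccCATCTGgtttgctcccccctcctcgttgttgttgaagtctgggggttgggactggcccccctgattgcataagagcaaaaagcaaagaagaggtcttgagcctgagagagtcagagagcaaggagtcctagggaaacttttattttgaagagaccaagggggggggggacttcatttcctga
Cspg4: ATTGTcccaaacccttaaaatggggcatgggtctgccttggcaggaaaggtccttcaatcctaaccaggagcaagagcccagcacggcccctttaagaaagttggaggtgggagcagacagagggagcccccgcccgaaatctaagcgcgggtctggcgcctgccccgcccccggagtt
The Pdgfra stretch of 250 bases held 1 CANNTG and no ACAAT, where 66.2% and 27.7% of 32851 promoter windows of that length held them. The Cspg4 stretch of 179 bases held 1 ACAAT and no CANNTG, against 21.5% and 55.3% of windows cut to that length. The Olig2 stretch of 157 bases held neither, against 50.8% of windows for CANNTG and 19.3% for ACAAT. A match or its absence describes these letters only.

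After filtering, 1825 cells of library 1 and 2064 of library 2 remained, with medians of 4442 and 5779.5 UMIs. Precursors were the cells with at least 2 Pdgfra UMIs, and oligodendrocytes those with at least 5 UMIs of the myelin genes Mag, Mog, Cldn11, Mal and Ermn together. The other cells were classed by cluster, without the 7 genes having entered the clustering, as quiescent (markers shared by quiescent stem cells and astrocytes), activated (activated stem cells and transit amplifying progenitors) or neuroblast; the names mean "like". Library 1 had 717 quiescent, 400 activated and 364 neuroblast cells, 14 precursors and 103 oligodendrocytes. Library 2 had 575 quiescent, 757 activated and 500 neuroblast cells, 24 precursors and 9 oligodendrocytes, and no cell passed both gates. Median UMIs per cell were 3523 and 3462 in quiescent, 9290 and 8593 in activated and 3577.5 and 5234.5 in neuroblast cells of libraries 1 and 2. The libraries shared 4 barcode sequences. Slc1a3, which encodes GLAST, had 2432 and 2395 CPM in quiescent, 431 and 519 CPM in activated and 208 and 211 CPM in neuroblast cells, and 112 oligodendrocytes were present in spite of the O4 exclusion. Levels are a gene's UMIs summed over the cells of a class per 1000000 UMIs of that class (CPM), which depend on each transcript's capture as well as its number. They are given with exact 95% Poisson intervals in brackets, and shares of cells with exact 95% Clopper-Pearson intervals. With 1 library per age there is no replicate check and no test; intervals cover counting error only, and lower RNA per cell cannot be told apart from fewer cells expressing a gene in the CPM.

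**Figure D1:**
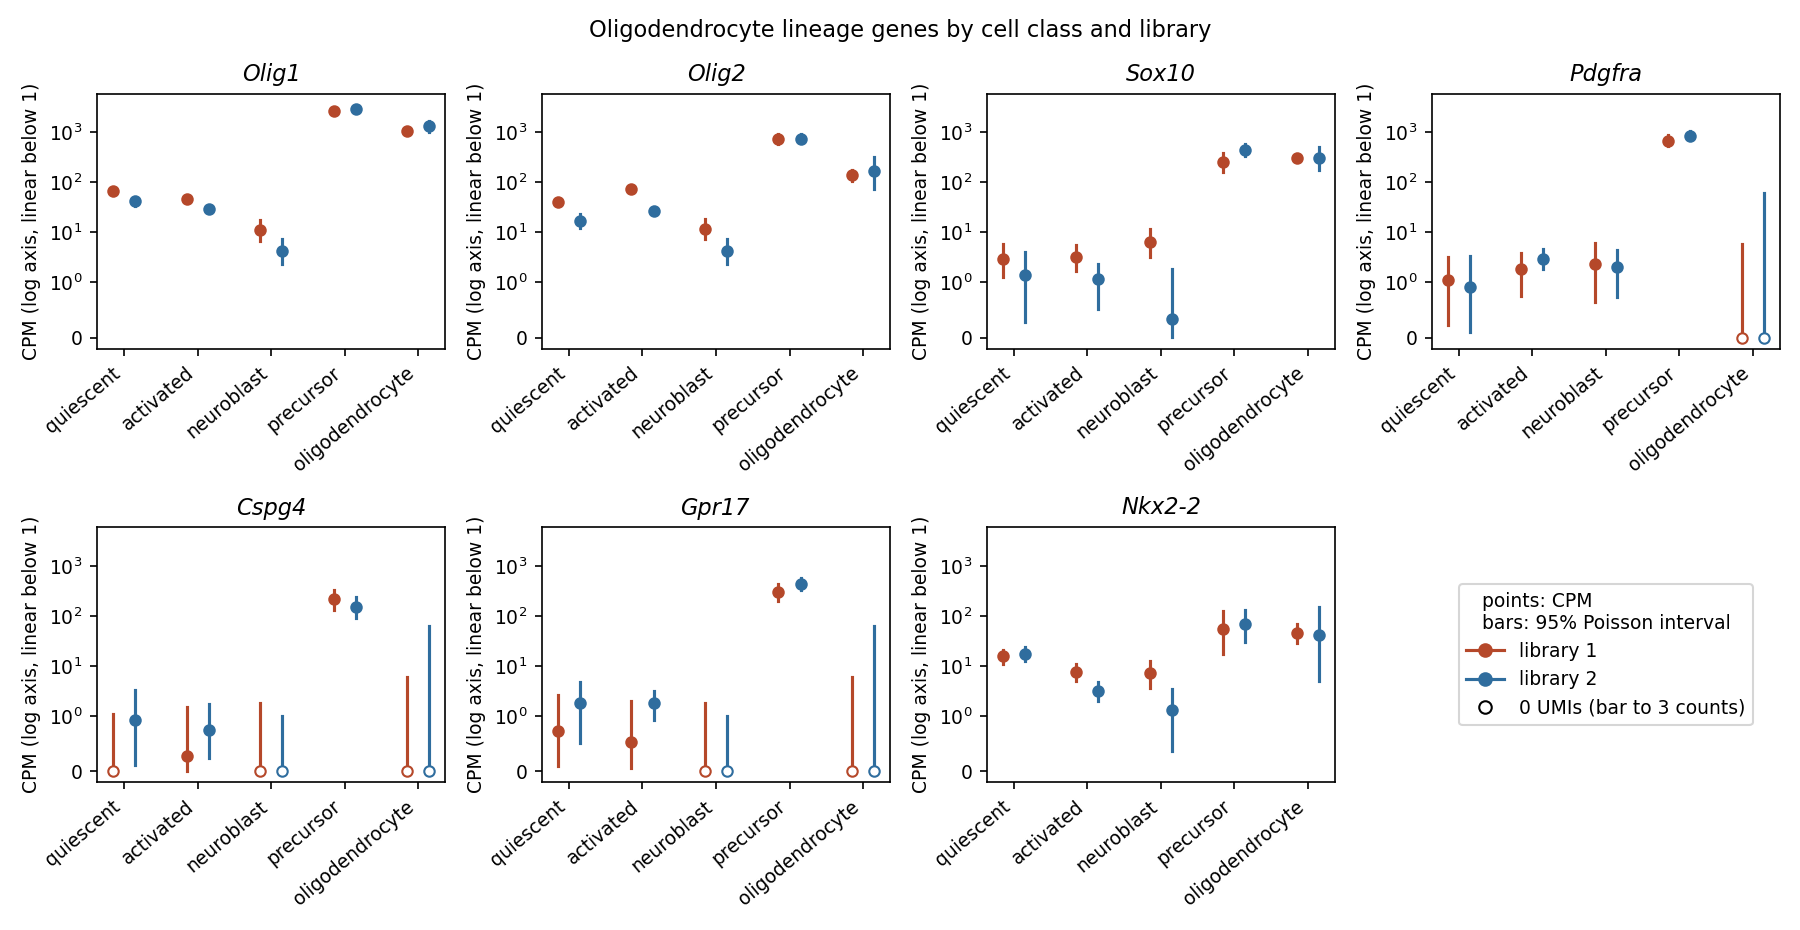
CPM of the 7 genes (vertical axis, logarithmic above 1 and linear below) in 5 cell classes (horizontal axis), with library 1 left of library 2 in each class; points are CPM, bars exact 95% Poisson intervals, and open points mark 0 UMIs with a bar up to 3 counts. Olig1, Olig2, Pdgfra, Cspg4 and Gpr17 are highest in precursors, Sox10 and Nkx2-2 have overlapping intervals in precursors and oligodendrocytes, and Olig1 and Olig2 remain between 17.1 and 72.8 CPM in quiescent and activated cells.

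Precursors held all 7 genes, and nearly every gated cell held several of them at once. Leaving out Pdgfra, which made the gate, 37 of the 38 gated cells had UMIs of at least 3 of the other 6 genes, against 9 of 1157 activated, 5 of 1292 quiescent and 0 of 864 neuroblast cells. The median was 5 of these 6 genes per precursor in library 1 and 4.5 in library 2. Among oligodendrocytes 47 of 112 had at least 3. The precursor level of Pdgfra, 686 CPM in library 1 and 858 CPM in library 2, is a description only.

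Just inside the Pdgfra threshold, 8 cells had exactly 2 Pdgfra UMIs, and 7 of them lay in the precursor cluster. These 8 held Olig1 at 2736 CPM and Olig2 at 782 CPM, each in 7 cells. Of 52 cells with exactly 1, 9 lay in the precursor cluster and 43 elsewhere. The 9 had Olig1 in every cell, at 3486 CPM, and Olig2 in every cell, at 909 CPM. In the 43 cells, Olig1 was at 34.4 CPM and Cspg4 had no UMI. A further 2 cells of the precursor cluster had no Pdgfra UMI.

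Of the 38 gated cells, 35 fell in the precursor cluster, whose leading genes besides Pdgfra were Lhfpl3, C1ql1, Opcml and Olig1. The other 3 stood apart. One library 1 cell, in an unnamed cluster led by early response genes, had 38698 UMIs, 41.5% of all precursor UMIs of that library, with 11 Olig1, 5 Pdgfra and 7 Gpr17 UMIs beside 86 UMIs of the activated-cell markers. One library 2 cell in an activated cluster had 16709 UMIs, with 12 Olig1 and 5 Pdgfra UMIs. The third, in library 2, had 2 Pdgfra UMIs and none of the other 6 genes, and held all 45 fibroblast marker UMIs and all 100 mural marker UMIs of the library 2 precursors. Cells marked by the doublet caller had been removed before the gates, so these 3 could not carry its mark. Whether they hold more than 1 cell was not tested. Levels are therefore given for all gated cells and for the 35 in the cluster.

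Olig1 was the member with the highest UMI level in precursors. It had 2700 CPM (2377 to 3054) in library 1 and 2880 CPM (2582 to 3204) in library 2, against 46.5 CPM (39.8 to 54.0) and 29.2 CPM (25.3 to 33.6) in activated cells of the same libraries. In the 35 clustered cells the precursor levels were 4410 and 3490 CPM. The log2 ratio of precursors over activated cells was 5.86 (5.57 to 6.15) in library 1 and 6.62 (6.37 to 6.88) in library 2. Every gated cell but the one with fibroblast markers carried Olig1, with up to 33 UMIs per cell in library 1 and 39 in library 2.

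Olig2 reached 739 CPM (575 to 935) in library 1 precursors and 748 CPM (600 to 921) in library 2 precursors, against 72.8 CPM (64.4 to 82.1) and 27.3 CPM (23.5 to 31.5) in activated cells. The log2 ratios were 3.34 (2.94 to 3.73) and 4.78 (4.39 to 5.15). Within the precursor cluster the levels were 1171 and 928 CPM. The smaller ratio of library 1 stood beside a higher activated-cell level there, while the precursor levels of the libraries overlapped.

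Sox10 had 24 UMIs in library 1 precursors (257 CPM, 165 to 383) and 52 in library 2 precursors (442 CPM, 330 to 579), against 12 UMIs (3.23 CPM) and 8 UMIs (1.19 CPM) in activated cells. It was found in 78.6% of library 1 precursors and 79.2% of library 2 precursors. Nkx2-2 was the least abundant of the factors, with 5 UMIs in library 1 precursors (53.6 CPM, 17.4 to 125) and 8 in library 2 precursors (68.0 CPM, 29.3 to 134), against 7.53 and 3.13 CPM in activated cells.

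Of the surface proteins, Cspg4 had 20 UMIs in library 1 precursors (214 CPM, 131 to 331) and 18 in library 2 precursors (153 CPM, 90.7 to 242), against 1 and 5 UMIs in activated cells. Gpr17 had 28 UMIs in library 1 precursors (300 CPM, 199 to 434) and 52 in library 2 precursors (442 CPM, 330 to 579), against 2 and 12 UMIs in activated cells. One activated cell of library 2, with 12631 UMIs, held 5 of those 12 Gpr17 UMIs together with 8 Olig1, 3 Olig2, 1 Sox10 and 1 Pdgfra UMIs. In neuroblasts neither gene had a UMI in either library, which allows up to 1.78 CPM in library 1 and 0.998 CPM in library 2.

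Counted by a threshold of 2-fold in both libraries among genes with at least 20 UMIs in each library over the classes compared, all 7 genes were higher in precursors than in activated cells, where 11.3% of the 9715 genes tested were higher and 3.32% lower. For Pdgfra this follows from the gate. Sox10, Cspg4 and Gpr17 had fewer than 20 UMIs in activated cells of each library, so only their precursor UMIs let them be tested. Library 1 precursors held 93349 UMIs in total, against 3720572 in activated cells, so the call of these genes was fixed by the filter and adds no support. Olig1, Olig2 and Nkx2-2 reached 20 UMIs in activated cells alone. Without the 3 cells outside the cluster the count was again 7 of 7, with 13.8% of 9680 genes higher and 4.36% lower. Over the 6 genes other than Pdgfra the median log2 ratio was 6.09 in library 1 and 7.15 in library 2, beside 0.41 and 0.31 for all genes tested.

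Other genes typical of precursors, 18 in a list that leaves out the 7, were called higher in 15 of the 16 that could be tested. Their median log2 ratios were 5.63 and 5.44. Among all genes with at least 50 UMIs in precursors, the largest ratios of precursors over activated cells were those of Lhfpl3, Neu4, Brinp3, Opcml and Cntn1, with Pdgfra and Gpr17 also among the top 10. Lhfpl3 had 386 and 773 CPM in precursors of libraries 1 and 2, against 1.61 and 0.596 CPM in activated cells, and Neu4, a sialidase, had 396 and 280 CPM against 0.269 and 0.894 CPM. Cntn1, a contactin, had 311 and 501 CPM against 0.806 and 1.49 CPM. Lhfpl3, Neu4 and Cntn1 had 10, 7 and 13 UMIs in activated cells of both libraries together. They too reached the 20 UMIs needed for a test only through precursors. Among 14 genes of committed cells 5 of the 8 tested were higher, among them Itpr2, an intracellular calcium channel, with 85.7 and 85.0 CPM against 4.57 and 2.68 CPM. Bcas1, a marker of newly forming oligodendrocytes, had 96.4 and 119 CPM in precursors and 1.08 and 0.894 CPM in activated cells, with too few UMIs to be called.

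Of 16 myelin genes, 2 of the 8 tested were higher in precursors than in activated cells, Cnp and Apod. Apod rested on the fibroblast-marked cell and was not called without the cells outside the cluster, where Cnp and Tspan2 were among those called. Of 26 partner factors, 3 of 25 tested were higher and 6 lower. Sox5 and Sox6, which act with Sox10 in this lineage, and Id2 were higher. Lower were Dlx1, Dlx2, Gsx2 and Pax6, factors of olfactory neurogenesis, as well as Hes5 and Smarca4, with Dlx2 at 75.0 and 85.0 CPM in precursors against 374 and 354 CPM in activated cells. Without the 3 cells outside the cluster 4 partner factors were higher and 8 lower, and Pax6 and Smarca4 were not among them. Of 10 genes of the PDGF pathway only the kinase Src was called, of 6 tested, with 42.8 and 59.5 CPM against 17.5 and 16.7 CPM. Cell cycle genes were lower in part, with 18 of 42 S phase genes and 26 of 51 G2 and M phase genes lower and none higher, or 21 and 19 without the 3 cells.

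**Figure D2:**
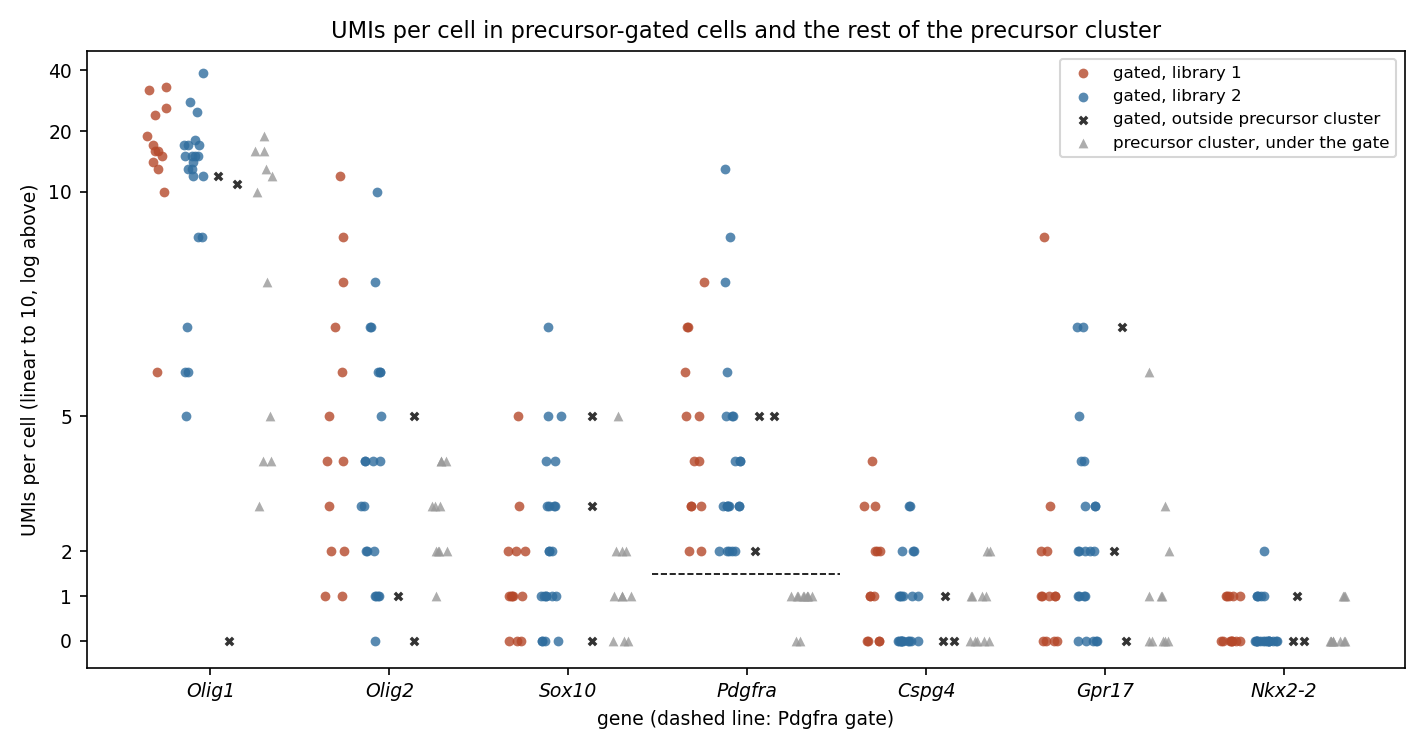
UMIs per cell (vertical axis, linear to 10 and logarithmic above) of the 7 genes (horizontal axis) in gated precursors of library 1 and library 2, in the 3 gated cells outside the precursor cluster (crosses) and in the 11 cells of that cluster under the Pdgfra gate of 2 UMIs (dashed line). Olig1 has the most UMIs in most cells, up to 39, and Nkx2-2 never more than 2.

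Within the precursors Cspg4 and Gpr17 were detected together in some cells and singly in others. Cspg4 was found in 21 of 38 cells, Gpr17 in 28, both in 14, Gpr17 alone in 14, Cspg4 alone in 7 and neither in 3. Gpr17 ranged up to 9 UMIs per cell, and 5 cells had at least 5. In the precursor cluster 13 cells of library 1 had medians of 4300 UMIs and 22 cells of library 2 had 4245.5 UMIs, so a missing UMI of these low genes does not show that the gene was off. After each cell had been thinned to 2000 UMIs, 8 of the 35 clustered precursors met the rule for dividing cells given below, against 740 of 1146 activated cells.

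Oligodendrocytes kept some of the factors and had no UMI of the precursor surface genes. Pdgfra, Cspg4 and Gpr17 had 0 UMIs in 112 oligodendrocytes, which allows up to 5.89 CPM in library 1 and 62.6 CPM in library 2. Olig1 had 1053 CPM (966 to 1146) in library 1 oligodendrocytes, against 2700 CPM in precursors, and 1315 CPM (1011 to 1683) in library 2, against 2880 CPM. The log2 ratios were -1.36 (-1.58 to -1.14) and -1.13 (-1.54 to -0.74). Olig2 had 139 CPM (109 to 176) in library 1 oligodendrocytes, against 739 CPM in precursors, and 167 CPM (72.1 to 329) in library 2, against 748 CPM. Its log2 ratios were -2.41 (-2.90 to -1.91) and -2.16 (-3.42 to -1.12). Sox10 had 310 CPM (264 to 363) in library 1 oligodendrocytes, against 257 CPM in precursors, and 313 CPM (175 to 517) in library 2, against 442 CPM, and both intervals of the ratio included no change. Nkx2-2 had 45.2 and 41.8 CPM in oligodendrocytes, against 53.6 and 68.0 CPM in precursors, on 23 and 2 UMIs.

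With 9 oligodendrocytes in library 2, 1500 genes could be tested, of which 14.1% were lower and 11.3% higher in oligodendrocytes than in precursors. Olig1, Olig2, Pdgfra and Gpr17 were among the lower ones, 4 of the 5 members tested. For Pdgfra the gate made the difference. Gpr17 had no UMI in oligodendrocytes, so it was tested through its precursor UMIs alone and could only be called lower. Of the 18 precursor genes 15 of 16 tested were lower, and all 16 myelin genes were higher, 5 of which made the oligodendrocyte gate. Of 4 committed-cell genes tested Nkx6-2 was higher and Mpzl1 lower, of 11 partner factors Zeb2 was higher and Sox2, Id2 and Nfib were lower, and the 1 PDGF gene tested was not called. That gate was clear-cut: 14 cells had 3 or 4 UMIs of the 5 genes and 1 cell had 5 or 6. The 14 cells just outside had Olig1 at 56.9 CPM and no Sox10 UMI, and the 1 cell just inside had no UMI of the 7 genes.

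The share of Olig1 in the summed Olig1 and Olig2 UMIs differed between classes. It was 88.3% (85.5 to 90.8) and 88.7% (79.0 to 95) in oligodendrocytes of libraries 1 and 2, and 78.5% (73.6 to 82.9) and 79.4% (75.2 to 83.1) in precursors. In activated cells it was 39.0% (34.4 to 43.7) in library 1 and 51.7% (46.6 to 56.8) in library 2, and in quiescent cells 62.1% (56.2 to 67.7) and 71.3% (62.7 to 78.9). The 4 intervals of precursors and oligodendrocytes lay above both of activated cells in each library. In library 2 the quiescent interval overlapped that of precursors. Quiescent cluster 0 alone had 69.9% (58.8 to 79.5) and 79.7% (67.2 to 89.0), overlapping precursors in both libraries, so a high Olig1 share was not particular to precursors and oligodendrocytes.

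In the neurogenic classes Pdgfra, Cspg4, Gpr17 and Sox10 had at most 20 UMIs per class and library, whereas Olig1 and Olig2 had up to 196 and 271. Pdgfra was found in 1.75% of library 1 and 2.64% of library 2 activated cells, beside 1.10% and 1.20% of neuroblasts, which should lack it and had lower median UMIs. After thinning to 2000 UMIs per cell its shares were 0% and 1.20% in activated cells and 0.299% and 0.412% in neuroblasts. Each such cell had 1 Pdgfra UMI, since the gate removed those with more. Gpr17 was found in 2 and 8 activated cells and Cspg4 in 1 and 5, and neither in a neuroblast. After thinning the shares in activated cells were 0.506% and 0.399% for Gpr17 and 0% in both libraries for Cspg4. Sox10 was found in 3% and 1.06% of activated cells and in 3.02% and 0.200% of neuroblasts, with 3.23 and 1.19 CPM in the activated class beside 6.51 and 0.333 CPM in neuroblasts. In library 1 its activated level did not exceed that of neuroblasts and is read as background, and in library 2 the counts are 8 UMIs in activated cells and 1 in neuroblasts. Olig2 was found in 8.09% and 4.00% of quiescent cells, in 37.0% (32.3 to 41.9) of library 1 and 15.6% (13.1 to 18.4) of library 2 activated cells and in 4.67% and 2.60% of neuroblasts. After thinning to 2000 UMIs, which left out 78 and 35 quiescent cells, 5 and 6 activated cells and 30 and 14 neuroblasts, the Olig2 shares were 5.16% and 2.22% in quiescent cells, 11.6% and 3.73% in activated cells and 1.80% and 0% in neuroblasts. Olig1 was found in 15.1% and 10.4% of quiescent cells, 23.7% and 11.8% of activated cells and 4.95% and 2.60% of neuroblasts. After thinning the Olig1 shares were 10.2% and 6.30% in quiescent cells, 8.35% and 3.73% in activated cells and 1.80% and 0.823% in neuroblasts, so that the order of the quiescent and activated shares turned with the depth.

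With the classes as drawn here, Olig2 was higher in activated than in quiescent cells in both libraries, by less than 2-fold. The size, and in library 2 the direction, depended on the clusters included. It had 72.8 CPM in library 1 activated cells, against 40.3 CPM (33.1 to 48.6) in quiescent cells, and 27.3 CPM in library 2 activated cells, against 17.1 CPM (12 to 23.5) in quiescent cells. The log2 ratios were 0.85 (0.53 to 1.19) and 0.68 (0.16 to 1.23). With quiescent cluster 0 alone they were 2.31 and 1.23. With cells classed by marker UMIs in place of clusters they were 2.57 and 1.79, and with activated cluster 5 alone the library 2 value was -0.20. In library 1 the CPM of quiescent cluster 1, given by cluster below, was above that of the activated class as a whole.

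Olig1 had 46.5 CPM in library 1 activated cells, against 66.0 CPM (56.7 to 76.3) in quiescent cells, and 29.2 CPM in library 2 activated cells, against 42.4 CPM (34.2 to 52.1) in quiescent cells. The log2 ratios were -0.50 (-0.81 to -0.20) and -0.54 (-0.90 to -0.17). This order turned under 5 other ways of drawing the classes, so no direction is given for it: the ratios were 0.11 and 0.52 with a stricter cell filter, 1.49 and 0.024 with classes by marker UMIs, 0.46 in library 1 with doublets kept, 0.45 in library 1 against quiescent cluster 0 alone, and 0.24 and 1.17 with activated cluster 9 alone. One library 2 activated cell, in cluster 9, had 34 of the 196 Olig1 UMIs, and one library 2 quiescent cell, in cluster 1, had 18 of 92. Without the cell with most Olig1 UMIs in each class and library the ratios were -0.51 and -0.50.

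Nkx2-2 was lower in activated than in quiescent cells by CPM. It had 7.53 CPM (5 to 10.9) in library 1 activated cells, against 15.4 CPM (11.1 to 20.8) in quiescent cells, and 3.13 CPM (1.94 to 4.78) in library 2 activated cells, against 17.5 CPM (12.4 to 24.1) in quiescent cells. It was the 1 gene of the 3 members tested that was at least 2-fold lower in both libraries, where 19% of 11007 genes were lower and 14.4% higher. Its quiescent UMIs lay mostly in cluster 0, at 20.5 and 30.1 CPM, against 6.85 and 6.16 CPM in cluster 1. Per cell, 5.72% and 6.61% of quiescent cells, 6.25% and 2.38% of activated cells and 3.02% and 0.800% of neuroblasts had a UMI, so that in library 1 the share did not follow the CPM. A single UMI was found in all of these quiescent cells but 1. After thinning the shares were 2.66% and 3.33% in quiescent, 2.03% and 0.399% in activated and 0.898% and 0% in neuroblast cells.

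None of the precursor, committed-cell or myelin genes tested was called higher in activated than in quiescent cells. Of 14 committed-cell genes, 5 of 9 tested were lower and none higher, among them Nkx6-2, a homeobox factor of oligodendrocytes, with 9.14 and 9.24 CPM in activated cells against 88.7 and 99.6 CPM in quiescent cells, and Tcf7l2, an effector of Wnt signalling, with 42.2 and 58.9 CPM against 158 and 137 CPM. Of 18 precursor genes 3 of 12 tested were lower, Matn4, Cntn1 and Bcan, the last a proteoglycan that astrocytes also carry, with 66.1 and 48.7 CPM against 1046 and 983 CPM. Of 16 myelin genes 1 of 8 tested was lower, Cnp. The median log2 ratios were -1.66 and -1.21 for the committed-cell list, -0.76 and -0.48 for precursor genes and -0.12 and -0.09 for myelin genes, beside 0.024 and 0.022 for all genes. Of 26 partner factors 10 were higher, among them Dlx2 (374 and 354 CPM against 27.1 and 38.3 CPM) and Gsx2 (102 and 132 CPM against 34.8 and 23.5 CPM), and 2 were lower, the inhibitors Id2 and Id4. In the PDGF list 4 of 8 tested were lower, among them the ligand gene Pdgfa (14.2 and 23.7 CPM against 38.8 and 50.7 CPM), and the phosphatase gene Ptpn11 was higher.

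**Figure D3:**
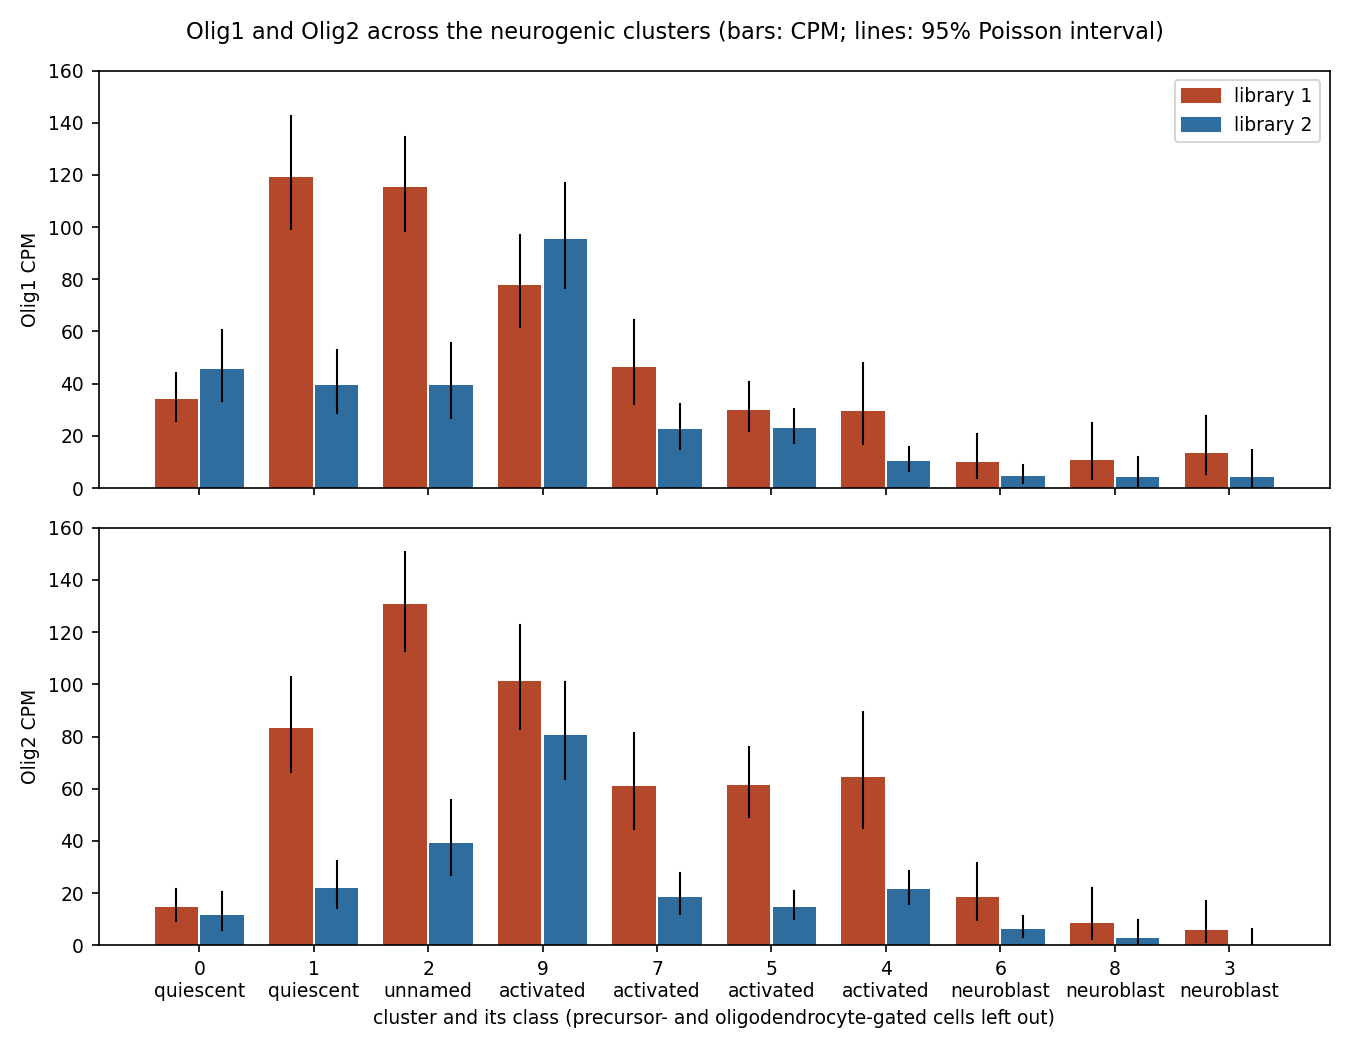
Olig1 (upper panel) and Olig2 (lower panel) CPM (vertical axes, from 0) in 10 clusters (horizontal axis), with library 1 left of library 2; bars are CPM and lines exact 95% Poisson intervals. Cluster 9 is the activated cluster with the highest level of both genes, and neuroblast clusters 6, 8 and 3 stay below 20 CPM.

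Clusters of 1 class differed. Among the activated clusters, cluster 9, led by Gsx1, Ccnd1, Dll1, Dll3 and Egfr, had the highest Olig2 level, 101 CPM in library 1 and 80.8 CPM in library 2, with a UMI in 45.8% and 28.9% of its cells. Clusters 4, 5 and 7 had 64.4, 61.6 and 60.9 CPM in library 1, with overlapping intervals, and 21.5, 14.8 and 18.7 CPM in library 2. The unnamed cluster 2, led by the early response genes Junb, Socs3 and Cebpb, had 131 and 39.4 CPM of Olig2 and 115 and 39.4 CPM of Olig1. Quiescent cluster 0, with astrocyte genes, had 14.7 and 11.6 CPM of Olig2, whereas quiescent cluster 1, led by Gfap, Ass1 and Thbs4, had 83.1 and 22.0 CPM. The activated class of library 1 drew the most cells from cluster 9 (118 cells), that of library 2 from cluster 4 (271 cells).

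Both Olig genes were lower in neuroblasts than in activated cells. Olig1 had 11.2 CPM (6.77 to 17.6) in library 1 neuroblasts, against 46.5 CPM in activated cells, and 4.33 CPM (2.30 to 7.40) in library 2 neuroblasts, against 29.2 CPM. Olig2 had 11.8 CPM (7.23 to 18.3) in library 1 neuroblasts, against 72.8 CPM, and 4.33 CPM in library 2 neuroblasts, against 27.3 CPM. The log2 ratios were -2.05 and -2.76 for Olig1 and -2.62 and -2.66 for Olig2, and these were 2 of the 3 members tested, where 5.38% of 10399 genes were lower and 4.58% higher. The third, Nkx2-2, had 7.10 and 1.33 CPM in neuroblasts, against 7.53 and 3.13 CPM in activated cells. Gsx2 was among the partner factors that were lower as well, while Dlx2 was higher (1021 and 893 CPM against 374 and 354 CPM). Of the precursor genes, Vcan and Cacng4 were higher in neuroblasts and Sox8 and Xylt1 lower, of 11 tested. Tcf7l2 was lower, of 9 committed-cell genes, Ermn higher, of 9 myelin genes, and Pdgfa lower, of 6 PDGF genes.

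Division was read from 12 core cell cycle genes, at least 2 UMIs of them after thinning, which 61.5% of library 1 and 66.2% of library 2 activated cells met. Olig1 had fewer UMIs per total in dividing activated cells, with 33.0 CPM in library 1, against 73.9 CPM in those not dividing, and 20.8 CPM in library 2, against 50.7 CPM. Its log2 ratios were -1.16 (-1.61 to -0.72) and -1.28 (-1.70 to -0.87). It was the 1 of the 3 members tested that was called, where 0.293% of 9551 genes were lower and 2.44% higher. In library 2 this rested on the cell with 34 Olig1 UMIs, which was not dividing: without it and the other cells with most Olig1 UMIs the ratios were -1.32 (-1.79 to -0.86) and -0.66 (-1.13 to -0.18), and the 2-fold call was lost. Olig2 had 62.1 CPM in dividing cells of library 1, against 95.1 CPM in those not dividing, and 22.7 CPM in library 2, against 39.1 CPM, with log2 ratios of -0.62 (-0.97 to -0.26) and -0.79 (-1.22 to -0.34). Dividing cells were 31.4% and 38% of cluster 9, the activated cluster with the most Olig1, and 98.2% and 98.5% of cluster 5, and the part of this in the Olig1 ratio was not tested. No gene of the precursor, committed-cell, myelin, partner or PDGF lists was called. A wider rule, at least 3 UMIs of 42 S phase and 51 G2 and M phase genes, was met by 99.2% and 99.6% of activated cells and by 76.0% of library 1 oligodendrocytes.

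Detection of Olig1 in cells with and without Olig2 was compared within each class. At 2000 UMIs per cell, Olig1 was found in 8.70% (4 of 46) of library 1 activated cells with Olig2, against 8.31% of those without, and in 10.7% (3 of 28) of library 2 activated cells with Olig2, against 3.46% of those without. In quiescent cells it was found in 33.3% (11 of 33) with Olig2, against 8.91% without, in library 1, and in 16.7% (2 of 12), against 6.06%, in library 2. Egfr, the growth factor receptor of activated cells, was found in 32.6% of library 1 activated cells with Olig2, against 31.5% of those without. In library 2 it was found in 53.6% (33.9 to 72.5) of activated cells with Olig2, against 22.1% (19.2 to 25.3) of those without. These shares were taken over the whole activated class. Cluster 9, with Egfr among its leading genes, had the highest Olig2 level of the activated clusters. The part of the cluster mix in these contrasts was not tested.

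Between the libraries, Olig2 was higher in library 1 in activated and quiescent cells. In precursors and oligodendrocytes the intervals of its ratio included no difference, but they are too wide to show that there was none. In activated cells the log2 ratio of library 1 over library 2 was 1.42 (1.14 to 1.70) for Olig2 and 0.67 (0.37 to 0.97) for Olig1. Olig2, Sox10 and Nkx2-2 were at least 2-fold higher in library 1, 3 of the 5 members tested, where 1.77% of 11440 genes were higher and 2.33% lower. In these comparisons between libraries a gene was tested with at least 20 UMIs over both libraries together. Sox10 rested on 12 and 8 UMIs, at a level read as background in library 1, and neuroblasts had 11 and 1, so that no difference is read from its call. In quiescent cells Olig2 had a log2 ratio of 1.24 (0.69 to 1.82) and was the 1 of 3 members called, beside 2.51% of genes higher and 2.75% lower. In neuroblasts both Olig genes had ratios above 1, 1.38 (0.28 to 2.52) for Olig1 and 1.45 (0.37 to 2.58) for Olig2, on at most 20 UMIs per library; these were the 2 members tested, where 2.89% of genes were higher and 1.83% lower.

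In precursors none of the 6 members tested reached 2-fold, where 5.85% of 2084 genes were higher and 5.57% lower, nor did any without the 3 cells outside the cluster, where 5.81% were higher and 5.46% lower. The Olig2 ratio was -0.017 (-0.49 to 0.45) in precursors, or 0.33 (-0.15 to 0.82) without those cells, and -0.26 (-1.32 to 1.01) in oligodendrocytes. None of the 4 members tested in oligodendrocytes reached 2-fold, where 13.7% of genes were higher and 5.48% lower. By cluster, the ratio of Olig2 was 1.58, 2.05 and 1.70 in activated clusters 4, 5 and 7, 1.92 in quiescent cluster 1 and 1.73 in unnamed cluster 2. It was 0.33 (-0.11 to 0.77) in activated cluster 9 and 0.33 (-0.71 to 1.46) in quiescent cluster 0, where both intervals include no difference. Olig1 was 1.59 (1.09 to 2.12) in cluster 1 and -0.29 (-0.74 to 0.16) in cluster 9. Without the cells with most Olig1 UMIs these were 2.22 (1.60 to 2.88) and 0.20 (-0.32 to 0.73).

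Myelin genes moved with this difference. Of the myelin genes tested, 13 of 15 in activated cells, 12 of 14 in quiescent cells and 10 of 11 in neuroblasts were at least 2-fold higher in library 1. The median log2 ratio of the list in activated cells was 2.31, beside 0.024 over all genes. The oligodendrocyte marker list summed to 341 CPM in library 1 and 82.9 CPM in library 2 activated cells, with 10 of 10 markers detected in both. None of the 26 partner factors was higher in library 1 activated cells and 1 was lower, and 1 of 11 precursor genes tested was higher. With cells holding a UMI of the 5 myelin gate genes left out, the Olig2 ratio was 1.66. Age, animals and library cannot be told apart here.

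**Figure D4:**
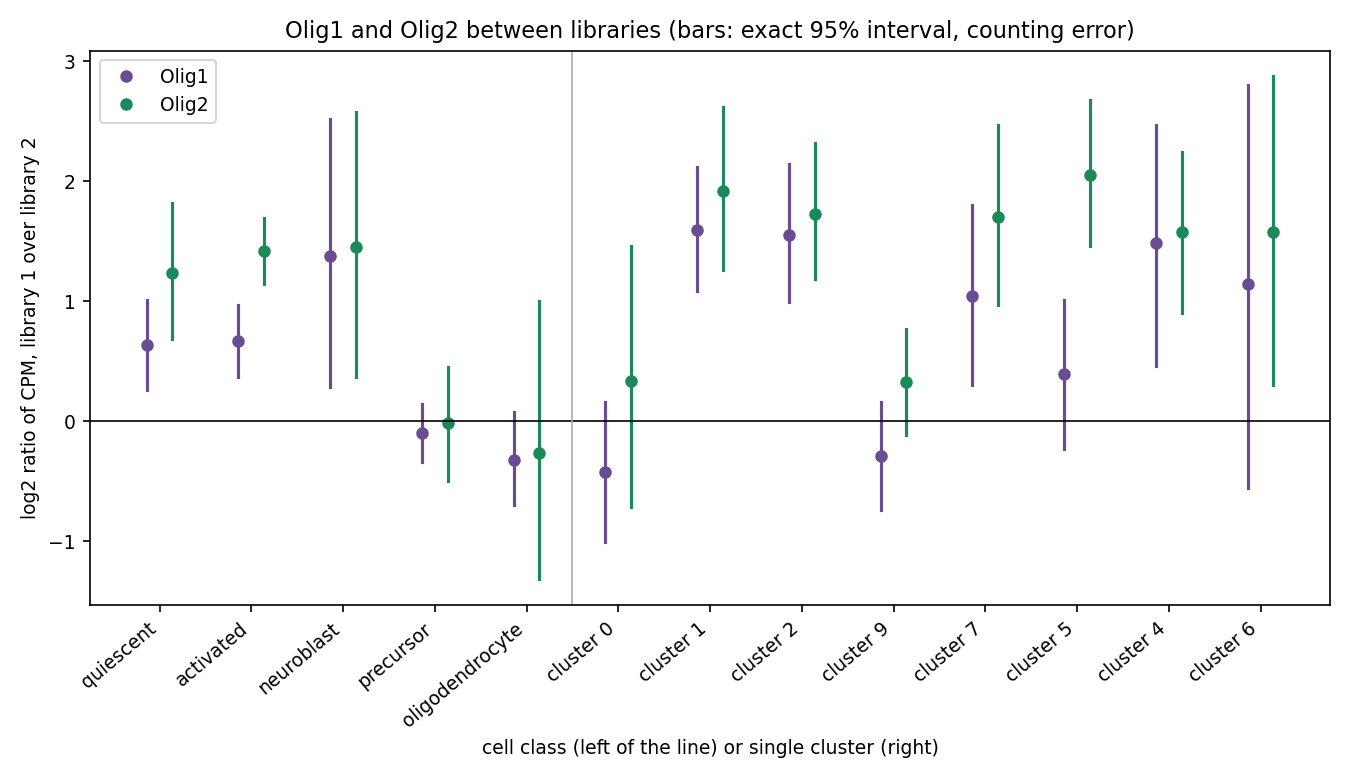
Log2 ratio of CPM of library 1 over library 2 (vertical axis) for Olig1 and Olig2 in 5 classes and in 8 single clusters (horizontal axis); points are ratios and bars exact 95% intervals of counting error. Olig2 lies above 1 in quiescent, activated and neuroblast cells and in clusters 1, 2, 4, 5, 6 and 7, and its interval crosses 0 in precursors, oligodendrocytes and clusters 0 and 9.

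Likeness was taken as Pearson's r of log2(CPM + 10) over 23 cluster-by-library points with at least 20 cells, which share libraries and depth, as a description. The precursor cluster had 16 cells in library 1 and 30 in library 2, so only library 2 gave a precursor point. The r values of Pdgfra, Cspg4 and Gpr17 rest largely on that single point. The oligodendrocyte cluster had 99 and 9 cells, so only library 1 gave a point for it. Pdgfra was most like Gpr17 (0.99), Neu4 and Cspg4, Cspg4 most like Neu4 (0.99), Lhfpl3 and Gpr17, and Gpr17 most like Neu4 (0.99), Lhfpl3 and Pdgfra. Sox10 was most like Bcas1 (0.98), Olig1 most like Cdc42ep1 (0.94), Olig2 most like Ncald (0.91) and Olig1 (0.91), and Nkx2-2 most like the calcium-binding protein gene S100b (0.91). Over the 21 points without the oligodendrocyte and precursor clusters, a choice made after the values were seen, Olig2 was most like Egfr (0.94), Id1 (0.93) and Hspa5 (0.92). Its r with Dcx, a neuroblast gene, was -0.72. Over the same 21 points the closest gene was Polq (0.73) for Pdgfra, Otx2 (0.82) for Cspg4 and Opcml (0.73) for Gpr17. It was Gjb1 (0.77) for Sox10, Cog8 (0.92) for Olig1 and Car2 (0.89) for Nkx2-2.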

How the data were processed

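The authors deposited 1 matrix of raw UMI counts, whole numbers by gene and barcode that were not normalized. Cell Ranger 2.0.0 with the builds GRCm38.p3 and mm10 stands in the submitters' processing notes. How cells were called and libraries merged is stated neither there nor in the labels. A floor of 500 detected genes and a ceiling of 10% mitochondrial UMIs removed 9 of 1849 barcodes in library 1 and 13 of 2088 in library 2. Scrublet, run per library at an expected rate of 1.5%, removed 15 (0.811%) and 11 (0.527%). Total counts before filtering were 10440891 and 13330251 UMIs, and barcodes ranged from 1440 to 56406 and from 1510 to 24313.

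Counts were scaled to 10000 per cell and logged. The 2000 most variable genes outside all lists, 30 principal components, 15 neighbours and Leiden at resolution 1 with seed 1 gave the clusters (Python 3.11.15, scanpy 1.11.5, leidenalg 0.10.2, scipy 1.17.1, sklearn 1.9.0). A cluster was named for the marker list that it exceeded other cells by most (mean log2 fold), provided 3 or more of those markers reached 1.5-fold and were detected in 10% of the cluster; this detection rule was added after a first form had named clusters 1 and 2 from nearly absent genes. The gates for precursors and oligodendrocytes came first.

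Ratios are log2 of summed CPM with exact conditional binomial 95% intervals. Between classes, a gene was tested with at least 20 UMIs in each library over both classes, and called at 2-fold in the same direction in both libraries. Between libraries, it was tested with at least 20 UMIs over both libraries together, and called at 2-fold. A count of 0 was set to 3 counts, as a bound. The ratio script was tested on simulated data. The rule for dividing cells was changed after the planned one had been met by most oligodendrocytes. Members and lists were chosen with earlier results of these data known. All 7 members are named; from each list the counts and up to 5 genes with the largest absolute ratio over both libraries could be named, and the genes listed as called were added after their values were seen. The alternatives changed the cell filter, doublet removal, both gates, the resolution, the class rule, the scaling, the thinning and the cells included. Results for some genes of the lists are not reported here.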

Additional observations from a re-analysis of the deposited data

Results flagged for a closer look

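The library ratios of Sox10 had opposite signs in 2 classes. In activated cells the log2 ratio of library 1 over library 2 was 1.44 (0.024 to 2.93), on 12 and 8 UMIs, and in precursors it was -0.78 (-1.54 to -0.057), on 24 and 52 UMIs. The difference between these ratios was not tested. In the 35 precursors inside their cluster the ratio was -0.59 (-1.44 to 0.20), with an interval that includes no difference. The activated-cell ratio rests on single UMIs at a level read as background in library 1, where neuroblasts had 11 UMIs (6.51 CPM), against 1 UMI (0.333 CPM) in library 2 neuroblasts.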

How the results depend on the processing

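No paired analysis was possible because each age had 1 library and no result comes from a test. With 14 and 24 precursors and 9 oligodendrocytes in library 2, low genes rest on few UMIs, and nothing here separates age from library. All values below are log2 ratios or counts. The causes of the changes were not tested.

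All 6 members other than Pdgfra, which the gate sets, were at least 2-fold higher in precursors in both libraries under each of the settings tried for that count. The precursor count was 31 in library 1 and 59 in library 2 with a gate of 1 Pdgfra UMI, and 7 in library 1 when cells with a myelin gate UMI were left out. For Olig2, activated over quiescent, library 1 gave 2.52 with doublets kept, 2.57 with classes by UMI gate, 1.39 as the mean of each cell's CPM and 1.21 without cells with a myelin gate UMI. Library 2 gave 1.59 with the strict filter (at least 1000 genes, at most 5% mitochondrial UMIs), 1.53 with doublets kept, 1.55 at resolution 2 and 1.79 with UMI gates. For Olig1, activated over quiescent, the strict filter gave 0.11 and 0.52, UMI gates 1.49 and 0.024, resolution 0.5 -0.087 and -1.02, and doublets kept 0.46 in library 1. For Olig1, library 1 over library 2 in activated cells, resolution 0.5 gave 1.32 and UMI gates 1.31.

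Alternatives added after seeing the data changed the clusters or single cells included. Against quiescent cluster 0 alone, Olig2 gave 2.31 and 1.23 and Olig1 0.45 in library 1. With activated cluster 4 alone, Olig1 gave -1.16 and -2.01, and 1.48 between libraries. With cluster 5 alone, Olig2 gave -0.20 in library 2 and 2.05 between libraries, and Olig1 -1.13 in library 1. With cluster 7 alone, Olig2 gave 0.13 in library 2 and 1.70 between libraries, and Olig1 -0.92 in library 2 and 1.05 between libraries. With cluster 9 alone, Olig2 gave 1.33 and 2.24, and 0.33 between libraries, and Olig1 0.24 and 1.17, and -0.29 between libraries. Of the other values recomputed under the settings listed before these, 793 stayed and 117 moved beyond the interval of the reported one.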
